A study of Homo sapiens with 6 samples.

Results

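Loci named for TGM4, SH3TC2, KIAA1462 and MN1 each held glucocorticoid receptor (GR) binding that was in every peak list of dexamethasone-treated MR/GR cells and in none of dexamethasone-treated GR cells. The loci are 4 fixed windows of the hg19 genome build, 1220 kb in all: 44.87 to 45.01 Mb on chromosome 3 (TGM4), 148.31 to 148.49 Mb on chromosome 5 (SH3TC2), 30.2 to 30.45 Mb on chromosome 10 (KIAA1462 and its flank) and 27.6 to 28.25 Mb on chromosome 22 (MN1 and the stretch beyond it). Overlapping peaks of all 12 deposited lists were merged into 43893 sites, of which 47 had their centre in a window. Of these 47, 5 were gained sites, meaning sites in all 3 MR/GR lists after dexamethasone and in no GR-cell list after dexamethasone, and the whole series had 63. The windows were chosen from the dexamethasone lists of both lines, by this gain and by the crowding of peaks around it, so the contrast between the lines inside them is given as a description and no test is made of it.

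GR binding was mapped by ChIP-seq, which sequences DNA pulled down with an antibody against GR, in 2 stable lines made from U-2OS, a human osteosarcoma line. The samples were MR/GR cells with dexamethasone (DEX, a synthetic glucocorticoid) at 100 nM for 2 hr, MR/GR cells with DMSO vehicle, GR cells with the same DEX treatment, and GR cells with DMSO vehicle. Each of these 4 samples had 3 numbered peak lists, and 1 input DNA sample per line had none used here. The labels give a dose of 100 nM for the GR-cell input and no dose for the MR/GR input. The series title names co-expression of the mineralocorticoid receptor (MR) as the variable, so each receptor setting was represented by 1 engineered line. The sources used here do not state whether a line was 1 clone or what drove its receptors. Nor do the labels tie the 3 lists of a sample to separate cultures, so the spread between lists may be technical. DEX lists held 3713, 10459 and 6660 peaks in MR/GR cells, against 37650, 30912 and 26191 in GR cells, with no heights or scores and with unknown read depth.

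GR and MR are closely related nuclear receptors that leave the cytoplasm when a steroid binds them and attach to similar response elements in DNA. Dexamethasone is mainly a GR ligand and also binds MR. Receptor-bound enhancers often lie far from promoters and in groups. Whether a gained site acts together with its neighbours was not tested here. The genes that name the windows are unrelated. TGM4 encodes the prostate transglutaminase, an enzyme that cross-links proteins of the seminal fluid. SH3TC2 encodes an adaptor protein of Schwann cells that is needed for normal myelin, and its loss causes a demyelinating form of Charcot-Marie-Tooth disease. KIAA1462, now called JCAD, encodes a protein of endothelial cell junctions whose locus is associated with coronary artery disease. MN1 encodes a transcriptional co-regulator that is altered in meningioma and myeloid leukaemia, and in mice it is needed for bones of the skull.

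An annotation of hg19 was not used here, so it was not determined which sites lie in a gene, an exon or an intron. The RefSeq table of GRCh38.p14 gives the order of protein-coding genes along each chromosome. By that table TGM4 lies between TMEM42 and ZDHHC3, and SH3TC2 is followed by ABLIM3. KIAA1462 lies between SVIL, which encodes an actin-binding protein, and MTPAP, the mitochondrial poly(A) polymerase. MN1 lies between CRYBB1, a lens crystallin gene, and PITPNB. Further out lie KIF15 and KIAA1143 before, and EXOSC7 and CLEC3B after, the TGM4 group, and AFAP1L1 and GRPEL2 after that of SH3TC2. For KIAA1462 they are LYZL1 and BAMBI before and MAP3K8 and LYZL2 after, and for MN1 they are CRYBA4 and TPST2 before and TTC28 and CHEK2 after.

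Each gained site stood beside GR-cell sites rather than alone. All 5 had a site of all 6 DEX lists within 10 kb, and the nearest site of at least 2 GR-cell lists lay 597 to 4004 bp away, centre to centre. Elsewhere 8 of 58 gained sites had a site of all 6 DEX lists within 10 kb. Among the 3165 sites of 3 MR/GR lists and at least 1 GR-cell list, 374 had another such site that near. The windows were chosen for crowding around the gain, so these neighbours follow in part from that choice. In every window GR-cell sites also continued to 40.96 kb or more from the gained site, some held by MR/GR cells and some not.

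**Figure D1:**
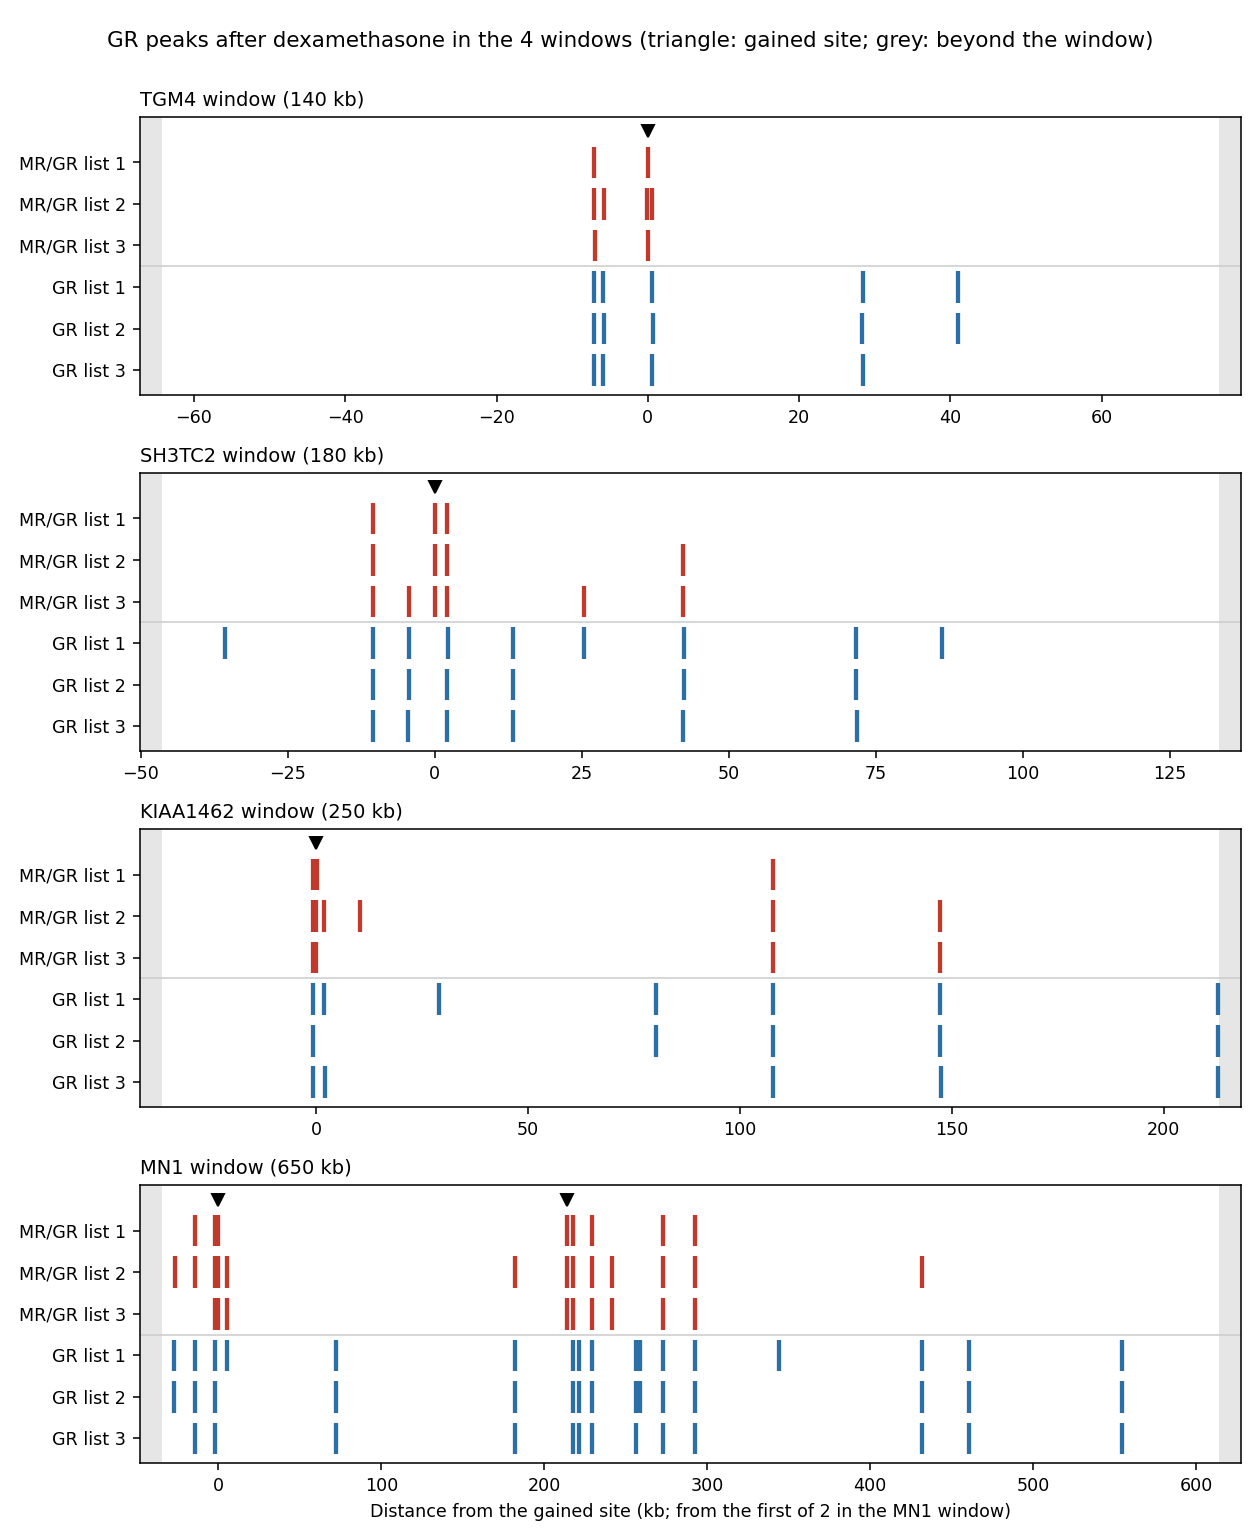
Peaks after dexamethasone in the 4 windows, with distance from the gained site in kb on the horizontal axis and the 3 MR/GR lists above the 3 GR-cell lists. Each mark is a peak centre, and triangles show the 5 gained sites, which have marks in all 3 MR/GR rows and in no GR-cell row.

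In the TGM4 window the gained site spanned 44934181 to 44934564 on chromosome 3. Its MR/GR peaks ran from 44934285 to 44934564 in list 1, from 44934181 to 44934464 in list 2 and from 44934181 to 44934484 in list 3. The peak of list 1 was shifted from the other two, and the 3 centres spanned 102 bp. Over the 3165 sites of 3 MR/GR lists and at least 1 GR-cell list, the centres spanned a median of 50 bp, and 474 of them spanned 100 bp or more. The nearest GR-cell site, 44934757 to 44935182, began 192 bp beyond the gained site and was held by all 3 GR-cell lists and by MR/GR list 2. The lines therefore differed here in which of 2 adjacent positions was listed. MR/GR lists 1 and 3 had the gained position alone, the 3 GR-cell lists had the adjacent position alone, and MR/GR list 2 had both, 628 bp apart.

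The other 4 sites of the TGM4 window were all in GR-cell lists, and some of them were also in MR/GR lists. The site at 44927088 to 44927511, 7.07 kb before the gained one, was in all 6 DEX lists. The site at 44928264 to 44928695 was in MR/GR list 2 and in all 3 GR-cell lists. On the far side, 44962558 to 44962981 was in no MR/GR list and in all 3 GR-cell lists, and 44975146 to 44975520 was in no MR/GR list and in GR-cell lists 1 and 2. These last sites lay 28.4 and 40.96 kb from the gained site, so all MR/GR peaks of this window lay within the stretch of the first 4 sites.

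In the SH3TC2 window the gained site spanned 148356391 to 148356712 on chromosome 5. Its peaks started at 148356433 in MR/GR list 1, 148356423 in list 2 and 148356391 in list 3, and their centres spanned 30 bp. It sat between a pair of GR-cell sites. On one side, 4480 bp away, 148351838 to 148352305 was in MR/GR list 3 and in all 3 GR-cell lists. On the other side, 2151 bp away, 148358491 to 148358914 was in all 6 DEX lists.

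The 7 remaining sites of the SH3TC2 window spread over both sides. The site at 148345887 to 148346310 was in all 6 DEX lists, and 148398590 to 148399068 was in MR/GR lists 2 and 3 and all 3 GR-cell lists. Sites at 148369546 to 148369983 and 148428013 to 148428447 were in no MR/GR list and in all 3 GR-cell lists. The site at 148381683 to 148382036 was in MR/GR list 3 and GR-cell list 1. Those at 148320675 to 148321028 and 148442540 to 148442893 were in GR-cell list 1 only, the longest list of the series.

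In the KIAA1462 window the gained site spanned 30236536 to 30236860 on chromosome 10. Its peaks started at 30236581 in MR/GR list 1, 30236569 in list 2 and 30236536 in list 3, with centres within 33 bp. A site of all 6 DEX lists, 30235740 to 30236163, lay 746 bp before it, and each MR/GR list had both peaks, 785, 753 and 734 bp apart. At the site of all 6 lists the mean centres of the lines were 0.3 bp apart. On the other side, 1909 bp away, 30238381 to 30238833 was in MR/GR list 2 and in GR-cell lists 1 and 3. MR/GR cells thus had a doublet of peaks in every list where GR cells had the left one alone.

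The remaining sites of the KIAA1462 window lay 10.35 to 212.83 kb beyond the gained one. The site at 30344280 to 30344703 was in all 6 DEX lists and 30383767 to 30384262 was in MR/GR lists 2 and 3 and all 3 GR-cell lists. The site at 30449289 to 30449758 was in no MR/GR list and in all 3 GR-cell lists, and 30316668 to 30317074 was in no MR/GR list and in GR-cell lists 1 and 2. Single lists held 30246906 to 30247189 (MR/GR list 2) and 30265495 to 30265848 (GR-cell list 1).

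The MN1 window was the longest, at 650 kb, and had 22 sites with 2 gained ones. The first gained site, 27635134 to 27635440 on chromosome 22, had the tightest placement of the 5: its MR/GR centres spanned 13 bp, with peaks starting at 27635153, 27635157 and 27635134 in lists 1, 2 and 3. It lay 2002 bp beyond 27633074 to 27633497, a site of all 6 DEX lists whose mean centres differed by -2.7 bp (MR/GR minus GR cells). On its other side, 5158 bp away, 27640256 to 27640633 was in MR/GR lists 2 and 3 and in GR-cell list 1. The stretch from 27633074 to 27640633 therefore held 3 positions, of which MR/GR cells had at least 2 lists at each and GR cells had 3, 0 and 1 lists.

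The other gained site of the MN1 window, 27848979 to 27849317, opened a denser group. Its peaks started at 27848979, 27849034 and 27849008 in MR/GR lists 1, 2 and 3, with centres spanning 57 bp. The next site, 4004 bp beyond, was 27852923 to 27853380, in all 6 DEX lists, and after it came 27856686 to 27857109, in no MR/GR list and all 3 GR-cell lists. Sites at 27864263 to 27864693, 27907644 to 27908067 and 27927742 to 27928186 were in all 6 DEX lists. Between them, 27891201 to 27891624 was in no MR/GR list and all 3 GR-cell lists, and 27893576 to 27893952 was in no MR/GR list and in GR-cell lists 1 and 2. On the near side the closest GR-cell site was 32.02 kb away, at 27816889 to 27817371, in MR/GR list 2 and all 3 GR-cell lists.

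A further MN1 site came close to the definition of a gain. The site at 27876523 to 27876826, 27.53 kb beyond the second gained one, was in MR/GR lists 2 and 3 with centres 1 bp apart and in no GR-cell list, and it was missing from MR/GR list 1, the shortest of the 3. It became a gained site when MR/GR list 1 was left out, and the MN1 window then had 3.

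The sites of the MN1 window not yet given were mostly those of GR cells. The site at 27706963 to 27707392, between the first and the second gained site, was in no MR/GR list and in all 3 GR-cell lists. The same held for 28067052 to 28067475, 28095842 to 28096265 and 28189633 to 28190056. The site at 27620511 to 27620939 was in MR/GR lists 1 and 2 and all 3 GR-cell lists. The site at 27608084 to 27608456 was in GR-cell lists 1 and 2, and 27979159 to 27979512 in GR-cell list 1. MR/GR list 2 alone held 27608648 to 27608931 and 28066727 to 28067010, which lay 191 and 41 bp from a GR-cell site without overlapping it. With the site at 30246906 in the KIAA1462 window, these were the 3 sites of the windows that a single MR/GR list held without any GR-cell list, and all 3 came from list 2, the longest MR/GR list.

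**Figure D2:**
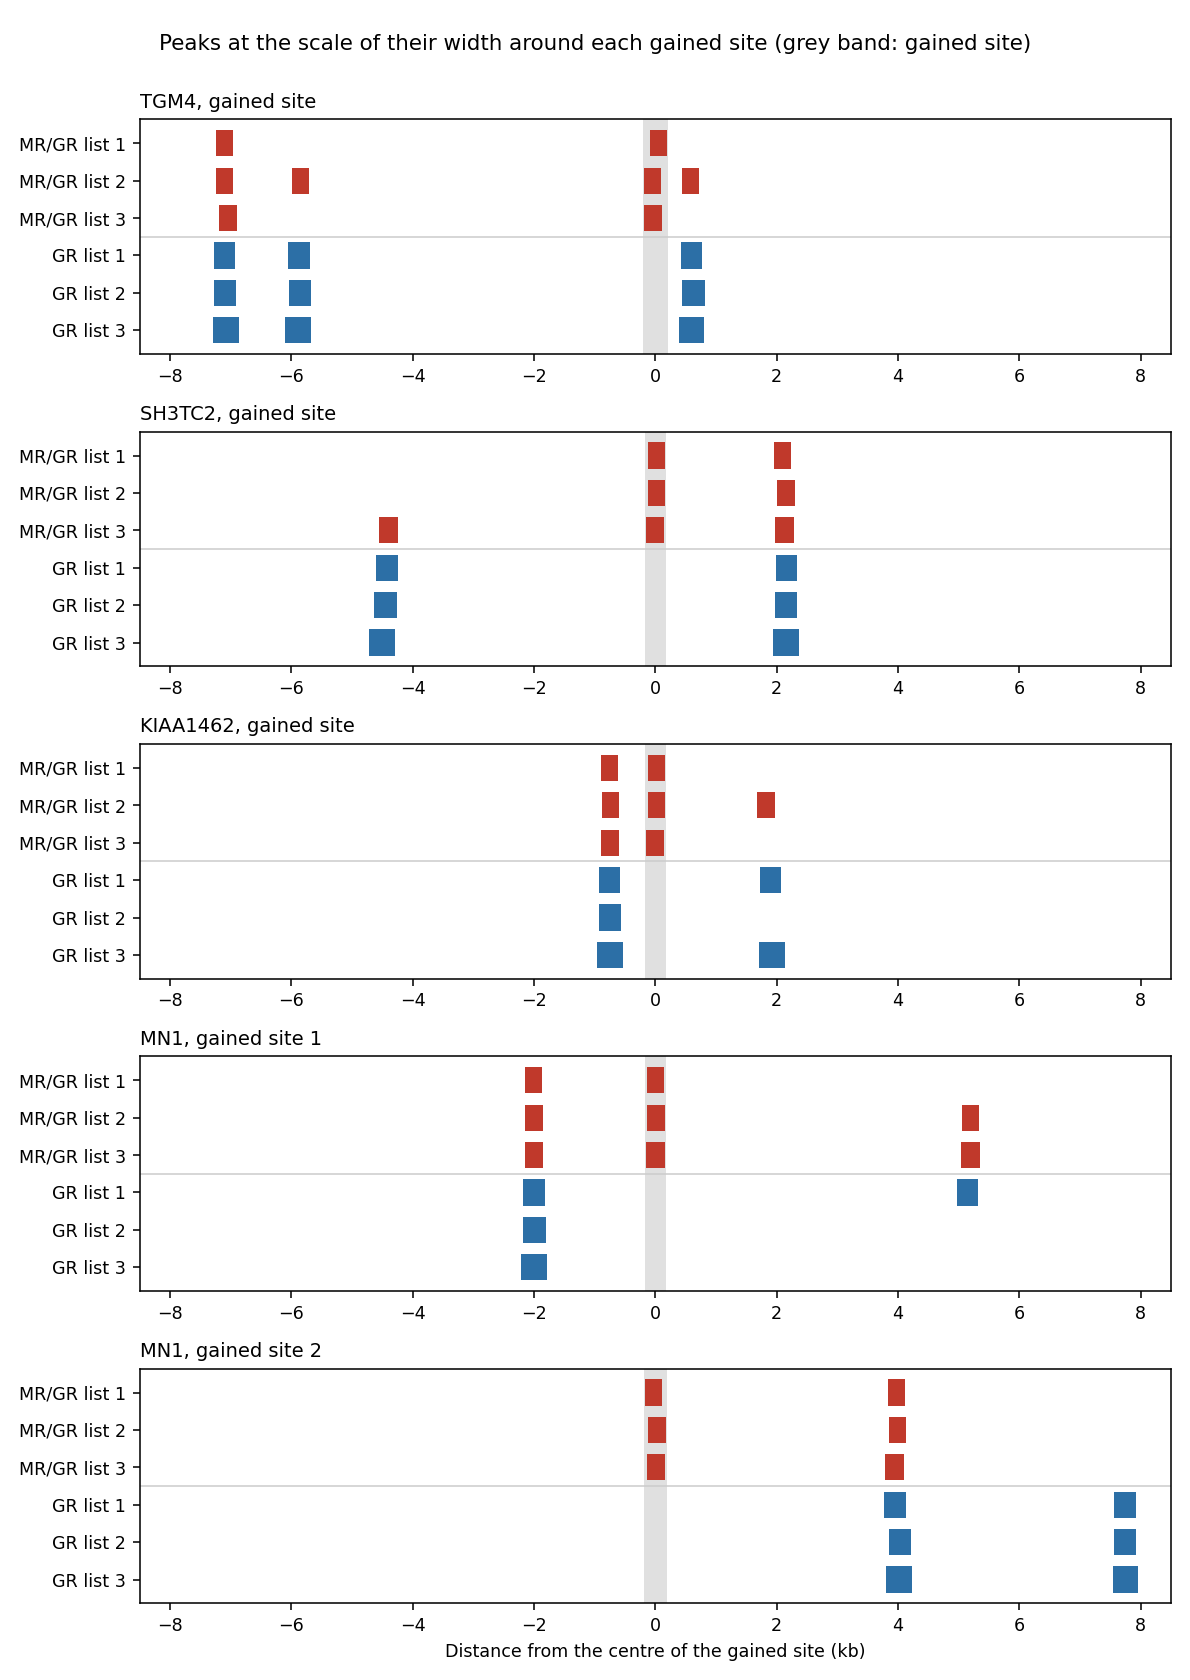
Peaks within 8 kb of each gained site, drawn to their width, with distance from the centre of the gained site in kb on the horizontal axis and the 3 MR/GR lists above the 3 GR-cell lists. In the TGM4 panel the nearest GR-cell peaks sit 595 to 627 bp from the centre of the grey band. In the KIAA1462 panel each MR/GR list has a peak in the band and another beside it.

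How near a neighbour lay differed among the gained sites, and 2 of the 5 were near enough that the lists' own spacing has to be set beside them. Within a list peaks kept a minimum distance. The closest centres were 613, 567 and 600 bp apart in the MR/GR lists and 699, 687 and 811 bp apart in the GR-cell lists. At TGM4 the nearest peaks of GR-cell lists 1, 2 and 3 were 595, 627 and 596 bp from the gained centre, nearer than any pair of peaks within the same list anywhere in the genome. At KIAA1462 they were 752, 750 and 746 bp away, nearer than any pair in GR-cell list 3 and farther than the closest pair in lists 1 and 2. At SH3TC2 they were at least 2150 bp away, and at the MN1 sites at least 1994 and 3952 bp, beyond the closest spacing of every list. Pairs of peaks within 1 kb numbered 28, 105 and 50 in the MR/GR lists and 315, 178 and 48 in the GR-cell lists. Relative to the peaks of each list, that was 0.754%, 1.0% and 0.751% in the MR/GR lists and 0.837%, 0.576% and 0.183% in the GR-cell lists. Peak width was fixed within a list, at 280, 284 and 304 bp in the MR/GR lists and 354, 366 and 424 bp in the GR-cell lists, where 1 peak of list 2 had another width. The part of width and spacing in the gains at TGM4 and KIAA1462 was not tested.

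The 5 sites can be set against the 58 gained sites elsewhere in the genome. The nearest site of at least 2 GR-cell lists was a median of 2002 bp away for the 5 (range 597 to 4004) and 11950 bp for the 58 (range 458 to 193083). Within 1 kb of such a site lay 2 of the 5 and 12 of the 58, or 20.7%. Among the 3165 sites of 3 MR/GR lists and at least 1 GR-cell list, another GR-cell site lay within 1 kb of 1.58%, where most of the sites are GR-cell sites themselves and the spacing of the GR-cell lists limits how close the next can be. A GR-cell peak nearer than the closest pair of its own list lay beside 9 of the 58, in at least 1 list, and beside 3 of the 58 in all 3 lists, as at TGM4. No peak of either line lay within 10 kb of 25 of the 58 and of none of the 5. Crowding was part of the choice of the windows: apart from their own peaks, the 5 had 9 to 14 DEX peaks within 10 kb, and the next gained site, 101263673 to 101263981 on chromosome 15, had 8.

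**Figure D3:**
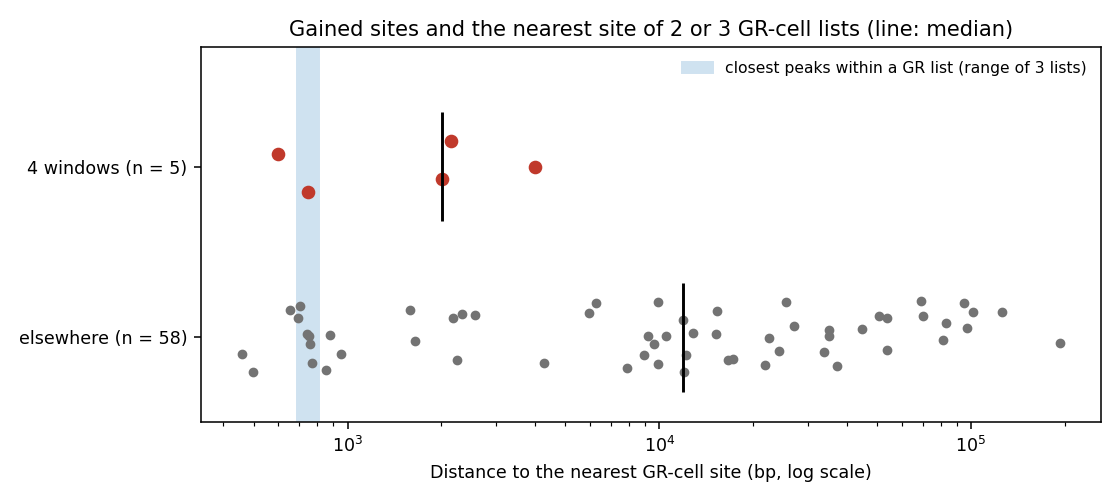
Distance in bp, on a log axis, from each of the 63 gained sites to the nearest site of 2 or 3 GR-cell lists, with the 5 sites of the windows above the 58 elsewhere and a line at each median (2002 and 11950 bp). The band marks the closest spacing of peaks within the GR-cell lists, 687 to 811 bp, and the TGM4 site lies left of it.

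Around the gained sites, counts of neighbouring peaks differed by line and by locus. Within 10 kb and leaving out the gained peaks, the TGM4 site had 5 MR/GR and 9 GR-cell peaks over the 3 lists of each line, and the SH3TC2 site had 4 and 6. The KIAA1462 site had 4 MR/GR and 5 GR-cell peaks. The MN1 sites had 5 MR/GR against 4 GR-cell peaks at 27635134 and 3 against 6 at 27848979. Only at the site at 27635134 did the MR/GR lists have more neighbouring peaks than the GR-cell lists.

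Peaks per list were fewer in MR/GR cells than in GR cells in every window on average, by less than in the genome as a whole. The TGM4 window had 2, 4 and 2 peaks in the MR/GR lists and 5, 5 and 4 in the GR-cell lists, and the ranges met at 4. The SH3TC2 window had 3, 4 and 6 peaks in the MR/GR lists and 9, 6 and 6 in the GR-cell lists. The KIAA1462 window had 3, 6 and 4 peaks in the MR/GR lists and 7, 5 and 5 in the GR-cell lists, and there the ranges overlapped. The MN1 window had 8, 13 and 9 peaks in the MR/GR lists and 17, 15 and 13 in the GR-cell lists.

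Over the 4 windows this came to 21.3 ± 5.51 peaks per list in MR/GR cells and 32.3 ± 5.13 in GR cells (SD, n = 3 lists each), or 1.75 and 2.65 peaks per 100 kb. The ratio of the means was 0.66 in the windows, against 0.22 over all peaks. By window it was 0.571 at TGM4, 0.619 at SH3TC2, 0.765 at KIAA1462 and 0.667 at MN1. As shares of a list, the windows took 0.431%, 0.258% and 0.315% of the MR/GR peaks and 0.101%, 0.1% and 0.107% of the GR-cell peaks. The windows were chosen for MR/GR peaks, so these ratios follow in part from that choice.

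**Figure D4:**
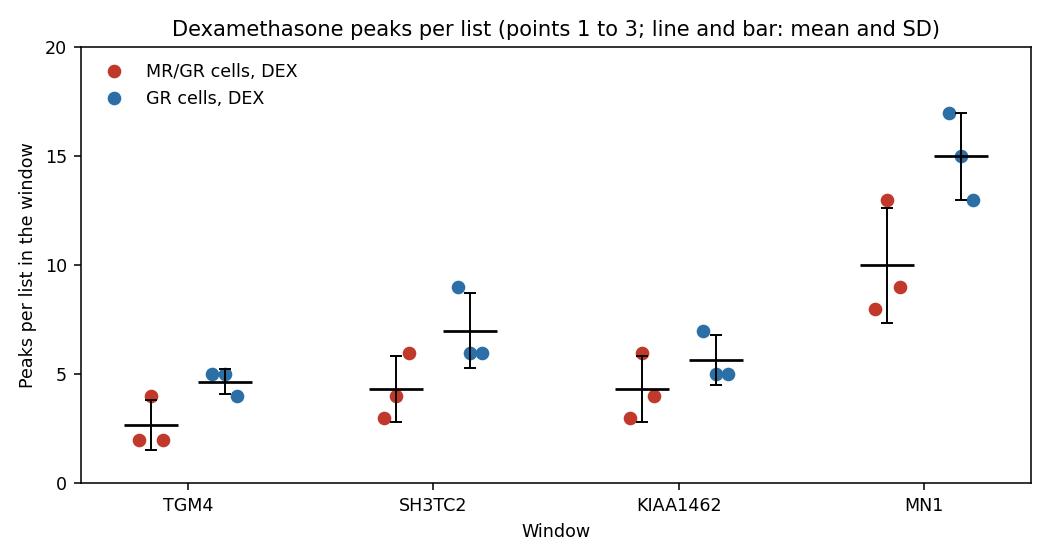
Peaks per list in each window after dexamethasone, with the 3 MR/GR lists left of the 3 GR-cell lists, a line at the mean and a bar of 1 SD. The MR/GR mean is below the GR-cell mean in each window, and the lists meet or overlap in all 4 (at MN1, 13 peaks in MR/GR list 2 and in GR-cell list 3).

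By the lists that held them, the 47 sites fell into several kinds. Gained sites made up 5 of 47, where 0.144% of all 43713 sites with a DEX peak were gained. Among the 15 window sites of all 3 MR/GR lists they were 5 of 15, where the share over all such sites was 1.95%. Both counts are fixed by the choice of the windows, and nothing is read from them. Sites in at least 2 lists of each line numbered 13 of 47, against 12.4% of all sites. They comprised 1 of 6 sites at TGM4, 3 of 10 at SH3TC2, 3 of 9 at KIAA1462 and 6 of 22 at MN1. Sites in at least 2 GR-cell lists and no MR/GR list numbered 14, or 29.8%, a smaller share than the 49.8% of all sites. Sites in at least 2 GR-cell lists and 1 MR/GR list numbered 5, against 3173 of all 43713 sites. The windows were chosen for MR/GR peaks, so nothing is read from these counts either. Another 2, both at MN1, were in 2 MR/GR lists and in at most 1 GR-cell list. The remaining 8 were in at most 1 list of each line, against 12808 of all 43713 sites.

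**Figure D5:**
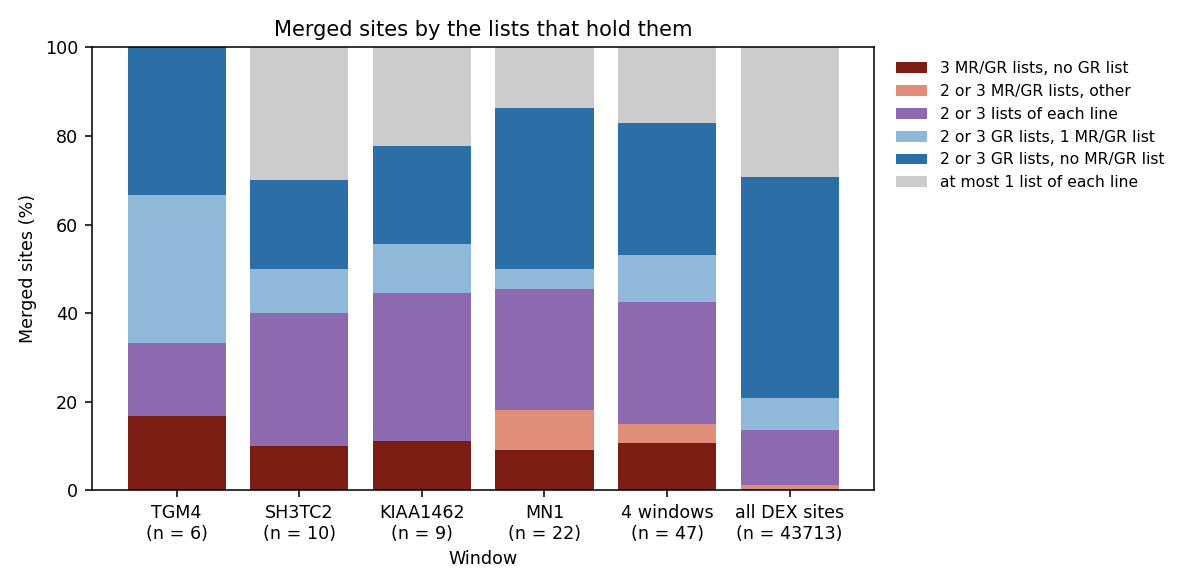
Share of merged sites in percent, by the lists that hold them, for each window, the 4 windows together and all sites with a dexamethasone peak (numbers of sites under the bars). The kinds are stacked from gained sites at the bottom to sites of at most 1 list of each line at the top, and sites of both lines make up 27.7% of the sites in the windows and 12.4% of all sites.

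The GR-cell sites around the gained ones were held by MR/GR cells in part. Of the 32 window sites in at least 2 GR-cell lists, 13 were also in at least 2 MR/GR lists, or 40.6%, where the share over all such GR-cell sites was 17.9%. Of 27 such sites that all 3 GR-cell lists had, 13 were held, or 48.1%, against 22.5% genome-wide. By window 1 of 5 was held at TGM4, 3 of 6 at SH3TC2, 3 of 6 at KIAA1462 and 6 of 15 at MN1. Within 10 kb of a gained site 5 of 10 were held, and farther off in the same windows 8 of 22. The windows were chosen from these lists, for MR/GR peaks and crowding, so nothing is read from these shares.

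Sites were made by overlap of peaks, which itself limits how far apart the centres of the lines can lie, so nothing is read from their closeness. Sites of only 1 MR/GR list are not among the 13 below, and there the difference reached -131.7 bp (27816889 at MN1). At the 13 sites held by both, the mean centre in MR/GR cells differed from that in GR cells by a median of 27.3 bp in either direction, with extremes of -65.2 bp (148398590 at SH3TC2) and 50.7 bp (27620511 at MN1).

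The members just inside and just outside the definition can be set side by side. Inside were the 5 sites of 3 MR/GR lists and no GR-cell list. Outside by 1 MR/GR list was 27876523 at MN1, with 2 and 0 lists, and outside by 1 list of each line was 27640256 at MN1, with 2 and 1. No window site had 3 MR/GR lists with 1 or 2 GR-cell lists, and the genome had 53 and 95 of those. The 10 other window sites of 3 MR/GR lists were in all 3 GR-cell lists.

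Without ligand the windows were empty. None of the 183 peaks of the 3 MR/GR vehicle lists and none of the 588 peaks of the 3 GR-cell vehicle lists had its centre in a window, so every peak of the 47 sites came from a DEX list. The nearest vehicle peak lay 1880, 1340, 2410 and 2650 kb outside the TGM4, SH3TC2, KIAA1462 and MN1 windows. With vehicle lists of 11 to 132 peaks in MR/GR cells and 122 to 238 in GR cells, binding under the calling threshold was not detectable, and with 0 peaks in every list the exact permutation test of MR/GR against GR cells had no difference to test.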

How the data were processed

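Per the labels, each list comes from a GR immunoprecipitation. The authors deposited 3 columns per peak (chromosome, start, end) with no score, p-value or height, a value of another kind than counts or signal. The lists are marked as called against input. Per the submitters' processing notes, the tools were HOMER 4.8.3, Picard 1.115, SAMtools 1.3.1, Bowtie and Trim Galore 0.4 with build hg19; their roles, the threshold and the input set against each list are not given in the sources used here. Read depth is unknown, so an unlisted peak may lie under the threshold. Longer lists and wider peaks raise overlap.

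Peaks of the 12 lists were merged where they overlapped by at least 1 bp, and all 43893 sites matched bedtools 2.31.1. A site belonged to a window by its centre. Merging was tested on simulated sites that all lay farther apart than the close neighbours at TGM4 and KIAA1462. The simulation therefore says nothing about merging at such short distances. Coordinates count from 1. The members, windows, tests and rule for named sites (every site of the windows, the 4 genes and 3 neighbours on each side, of which those before SH3TC2 are not reported here) were set with earlier results of these data known. Alternatives were other merging rules, numbers of lists, window limits and leaving out lists. Scripts ran in Python 3.11.15 (pandas 2.3.3, numpy 2.4.6, matplotlib 3.10.9, SciPy 1.17.1). No region sequence, motif or hg19 annotation was analysed here.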

Additional observations from a re-analysis of the deposited data

How the results depend on the processing

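Of 81 alternatives for the counts, shares, distances and ratios of DEX peaks over the 4 windows, 79 stayed within set limits and 2 did not. The limits were 1.5 times (counts), the Wilson 95% interval (shares) or 1 SD (others). They were wide: the interval of the share ran from 25.5% to 57.7%, and the SD for distances was that of the 5 gained sites, at 597 to 4004 bp. Merging the DEX lists alone could only return the main counts, share and distance, since no vehicle peak lay in or near a window. Requiring all 3 lists left the definition of a gained site, and so its count, unchanged. Such fixed outcomes are among the 79. Staying within these limits is therefore weak evidence of stability. Merging peaks at most 500 bp apart, a rule chosen after seeing the data, left 3 gained sites in place of 5, since TGM4 and KIAA1462 each went to 0, and at 200 bp TGM4 alone went to 0 and 4 remained. These rules join each gained peak with its neighbour by construction. With 1 list fewer required, 20 sites were held by both lines in place of 13, and MN1 had 3 gained sites, as it had without MR/GR list 1. Leaving out 1 DEX list at a time gave 5 to 6 gained sites. That count could not fall below 5, so it says nothing about a loss of gained sites. A site in all 3 MR/GR lists and no GR-cell list stays gained whichever list is left out. The same runs gave 43 to 47 merged sites, 10 to 13 sites held by both lines and 31.2% to 48.1% of GR-cell sites held. They also gave a median distance of 1994 to 2078 bp and a peak ratio of 0.572 to 0.742. Vehicle peaks were also absent from windows 50 kb longer on both sides, so leaving out a vehicle list or a replicate block by list number could only return a difference of 0, which says nothing about stability. No stricter peak threshold could be applied, since the lists have no scores. Lists of unequal length and unknown depth limit every absence given here.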
